A study of Homo sapiens with 6 samples.

Results

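The olfactory receptor genes were examined on the lists of highly and lowly expressed genes of SiHa, an established cell line from a squamous cell carcinoma of the cervix that carries human papillomavirus DNA. Members were every row of either list whose gene symbol had the form of an olfactory receptor name (OR, a family number, then a subfamily letter). There were 367 such rows among 8967 on both lists together, each with a different symbol. The series compared cells that migrated through a transwell membrane with cells that stayed behind (non-migrated), with 3 libraries of each fraction taken 10 hours after seeding. Both fractions came from the same untreated line, grown in serum-containing medium, and each library pooled cells scraped from several wells. Its title speaks of migratory cells in a state with little SUV39H1, a methyltransferase that writes a heterochromatin mark on histone H3. Each list gives a gene's symbol and its position on the hg19 genome and holds no expression value, and the files used here do not state the rule that placed a gene on a list. The lists are not split by fraction, so they say nothing of a difference between migrated and non-migrated cells. The members were chosen by their place on these lists, so list membership is described here and not tested.

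Olfactory receptors are G protein-coupled receptors with a coding sequence that usually lies in a single exon. An odorant bound at the surface of an olfactory sensory neuron activates the G protein subunit encoded by GNAL and adenylyl cyclase 3, and the cyclic AMP formed opens a cation channel. A mature olfactory neuron expresses a single receptor gene from a single allele, while the other receptor genes are kept in compact heterochromatin. Class I receptors (families OR51, OR52 and OR56 in humans) resemble the receptors of fish, and class II receptors make up all other families. The genes arose by repeated local duplication, so relatives often lie side by side, and many copies have become pseudogenes. Some receptors are also transcribed outside the nose, for example in prostate, sperm or skin.

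Coding sequences are shown first because clusters were described by how alike their neighbours are. For class I neighbours and for the cluster with the most class II receptors (OR4A16 to OR5AK2 on chromosome 11), the neighbouring pair of lowest and the pair of highest coding identity are printed from the start codon over 120 aligned columns. Sequences are from GENCODE 29, run 5′ to 3′, and capitals mark bases that differ from the partner or face a gap. Gaps are not printed. Identity counts only positions present in both genes, while the differing columns given below include columns with a gap. Among neighbours that were both class I, the least alike were OR56B4 (chr11:6128914-6130065 on the plus strand, hg19) and OR52B2 (chr11:6190560-6191638 on the minus strand), with 47.3% identity over the whole coding sequence and 93 of the 120 columns differing.
OR56B4: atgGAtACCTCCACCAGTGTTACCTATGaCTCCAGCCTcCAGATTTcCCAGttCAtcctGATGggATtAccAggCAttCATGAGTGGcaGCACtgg
OR52B2: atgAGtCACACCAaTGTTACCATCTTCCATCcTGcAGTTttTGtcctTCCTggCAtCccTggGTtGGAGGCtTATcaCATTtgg
The most alike class I neighbours were OR51A4 (chr11:4967355-4968356 on the minus strand) and OR51A2 (chr11:4976002-4976943 on the minus strand), with 98.4% identity and 0 differing columns in the stretch shown.
OR51A4: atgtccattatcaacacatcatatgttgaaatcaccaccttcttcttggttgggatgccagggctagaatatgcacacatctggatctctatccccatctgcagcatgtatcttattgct
OR51A2: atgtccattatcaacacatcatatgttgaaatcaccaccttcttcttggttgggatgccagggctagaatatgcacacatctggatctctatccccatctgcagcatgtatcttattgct
Among neighbours in the OR4A16 to OR5AK2 cluster, OR4C6 (chr11:55432614-55433671 on the plus strand) and OR5D13 (chr11:55540914-55541858 on the plus strand) were the least alike, with 49.1% identity and 71 of 120 columns differing.
OR4C6: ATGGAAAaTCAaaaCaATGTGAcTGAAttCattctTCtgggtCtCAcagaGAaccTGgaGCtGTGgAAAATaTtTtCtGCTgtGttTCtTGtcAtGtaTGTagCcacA
OR5D13: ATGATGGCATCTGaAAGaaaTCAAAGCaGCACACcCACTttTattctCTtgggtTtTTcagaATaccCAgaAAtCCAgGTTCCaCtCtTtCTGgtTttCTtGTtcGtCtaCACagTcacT
OR5M10 (chr11:56344212-56345263 on the minus strand) and OR5M1 (chr11:56380031-56380978 on the minus strand) were the most alike in that cluster, with 97.1% identity and 4 differing columns.
OR5M10: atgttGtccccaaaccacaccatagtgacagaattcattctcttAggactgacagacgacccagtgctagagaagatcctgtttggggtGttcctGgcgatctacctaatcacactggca
OR5M1: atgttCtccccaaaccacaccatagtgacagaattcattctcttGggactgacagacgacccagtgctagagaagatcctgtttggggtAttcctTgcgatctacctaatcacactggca
Over all clusters, neighbouring pairs ran from 43.2% (OR52W1 with OR2AG2, where class I meets class II) to 98.7% (OR8B2 with OR8B3).

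Promoter windows are shown because receptor genes differed from other listed genes in their sequence there. Each window runs from 250 bases before to 50 bases after the start of the gene model and was taken from RefSeq on GRCh38.p14. ZNF317 is a zinc finger gene of the high list that lies between receptors of the low list on chromosome 19, and OR7D2 is the receptor next to it. Capitals mark CpG dinucleotides in the windows of ZNF317 (chr19:9140147-9140446, plus strand) and OR7D2 (chr19:9178729-9179028, plus strand).
ZNF317: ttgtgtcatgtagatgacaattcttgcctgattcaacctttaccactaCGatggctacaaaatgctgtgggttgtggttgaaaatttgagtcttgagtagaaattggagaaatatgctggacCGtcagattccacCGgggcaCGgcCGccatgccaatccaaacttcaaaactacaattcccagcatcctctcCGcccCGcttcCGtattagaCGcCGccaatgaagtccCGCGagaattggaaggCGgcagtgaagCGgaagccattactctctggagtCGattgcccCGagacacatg
OR7D2: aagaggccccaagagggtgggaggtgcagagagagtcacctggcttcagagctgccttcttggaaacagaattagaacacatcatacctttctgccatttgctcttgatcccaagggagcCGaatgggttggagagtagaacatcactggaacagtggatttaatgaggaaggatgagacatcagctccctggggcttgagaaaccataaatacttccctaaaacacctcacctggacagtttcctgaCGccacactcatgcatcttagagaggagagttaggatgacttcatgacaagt
The ZNF317 window held 16 CpG dinucleotides at 50% G and C, and the OR7D2 window held 2 at 48.3%. In the next 3 windows capitals mark a match to a motif searched below, namely the EBF motif in OR56A1 (chr11:6034289-6034588, minus strand), the TATA motif in OR5M10 (chr11:56577672-56577971, minus strand) and the homeodomain motif in OR4C6 (chr11:55661951-55662250, plus strand).
OR56A1: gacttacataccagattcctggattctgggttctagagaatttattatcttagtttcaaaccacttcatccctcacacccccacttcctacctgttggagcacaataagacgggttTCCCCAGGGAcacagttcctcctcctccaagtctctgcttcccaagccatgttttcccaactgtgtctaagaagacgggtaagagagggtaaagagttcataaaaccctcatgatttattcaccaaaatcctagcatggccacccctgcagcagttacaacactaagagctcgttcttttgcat
OR5M10: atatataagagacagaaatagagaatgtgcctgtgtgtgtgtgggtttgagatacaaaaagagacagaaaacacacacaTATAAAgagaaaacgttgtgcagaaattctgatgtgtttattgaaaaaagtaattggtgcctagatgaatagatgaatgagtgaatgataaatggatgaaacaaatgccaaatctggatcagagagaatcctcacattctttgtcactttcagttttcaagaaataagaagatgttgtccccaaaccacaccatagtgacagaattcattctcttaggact
OR4C6: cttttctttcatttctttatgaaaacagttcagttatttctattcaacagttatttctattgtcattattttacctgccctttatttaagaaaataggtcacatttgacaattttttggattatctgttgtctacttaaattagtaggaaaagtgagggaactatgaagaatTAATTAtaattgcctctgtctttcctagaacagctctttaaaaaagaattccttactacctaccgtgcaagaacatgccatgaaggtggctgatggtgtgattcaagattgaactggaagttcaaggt
These 3 windows held 3, 1 and 1 CpG dinucleotides in the order shown.

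All 367 listed receptors were on the low list and 0 were on the high list, where 49.5% of the rows of both lists together were low. Receptors made up 8.27% of the 4436 low-list rows. They comprised 51 class I genes, with 22 of family OR51, 24 of OR52 and 5 of OR56, and 316 class II genes in 14 families. The largest class II families were OR2 with 62 genes, OR4 with 50, OR5 with 47, OR10 with 34 and OR6 with 30. The smallest were OR12 with 2 genes and OR3 with 3.

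Set against the RefSeq catalogue, the low list held most of the receptor repertoire. All 367 symbols matched a RefSeq gene, 366 of them by their current name and OR5R1 by an older name of OR8U3. Of 392 receptor genes that RefSeq types as protein coding, 365 (93.1%) were on the low list, 0 on the high list and 27 on neither. Over all 20056 RefSeq coding genes, 18.8% were on the low list and 22.3% on the high list. The share was 92.7% for class I (51 of 55) and 93.2% for class II (314 of 337). The 2 other listed receptors, OR10J3 and OR4F4, are pseudogenes in RefSeq. Every coding gene of OR3, OR6, OR7, OR12 and OR13 was on the low list.

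The coding receptors on neither list included 4 class I genes, OR51C1, OR52E5, OR56A5 and OR56B2, and 23 class II genes. Of the class II genes, 4 carried an OR8 symbol (OR8G1, OR8G5, OR8U8 and OR8U9) and 6 an OR2 symbol (OR2A7, OR2A25, OR2A42, OR2B6, OR2I1 and OR2J1). For 17 of the 27, RefSeq lists the same symbol with a final P, the mark of a pseudogene, as an older name. Among RefSeq coding receptors that GENCODE 29 also names, 95.3% were on the low list. With RefSeq pseudogenes in the denominator the share was 41.9%. Absence from both lists was not read as a level, since the lists do not give the genes that were considered.

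The listed receptors were unevenly spread over the genome, with 18 chromosomes holding at least 1 and 7 holding none (counting X, Y and the mitochondrial genome). Chromosome 11 held 160 receptors, 43.6% of all, and they made up 41.1% of its 389 low-list rows. Chromosome 1 followed with 61, then chromosome 9 with 24, chromosome 14 with 22 and chromosome 19 with 20. Receptors made up 20.6% of the low-list rows of chromosome 14 and 15.5% of those of chromosome 9. No receptor was listed on chromosomes 4, 13, 18, 20, 21 and Y. The listed strands were 207 plus and 160 minus.

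Joining listed receptors with at most 1 Mb between them gave 17 clusters of at least 5 receptors on 10 chromosomes, which held 331 receptors (90.2%). A further 10 runs of 2 to 4 receptors held 24, and 12 receptors stood alone. The 3 largest clusters held 150 receptors, 40.9% of all. Within clusters, neighbouring receptors lay on the same strand in 201 of 314 pairs. The hg19 order of neighbours matched the RefSeq order in 308 of 314 steps. Clusters differed in density, from 5.90 receptors per Mb on chromosome 14 to 41.8 per Mb in the cluster of 8 OR13 genes on chromosome 9, and in what lay between the receptors.

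**Figure D1:**
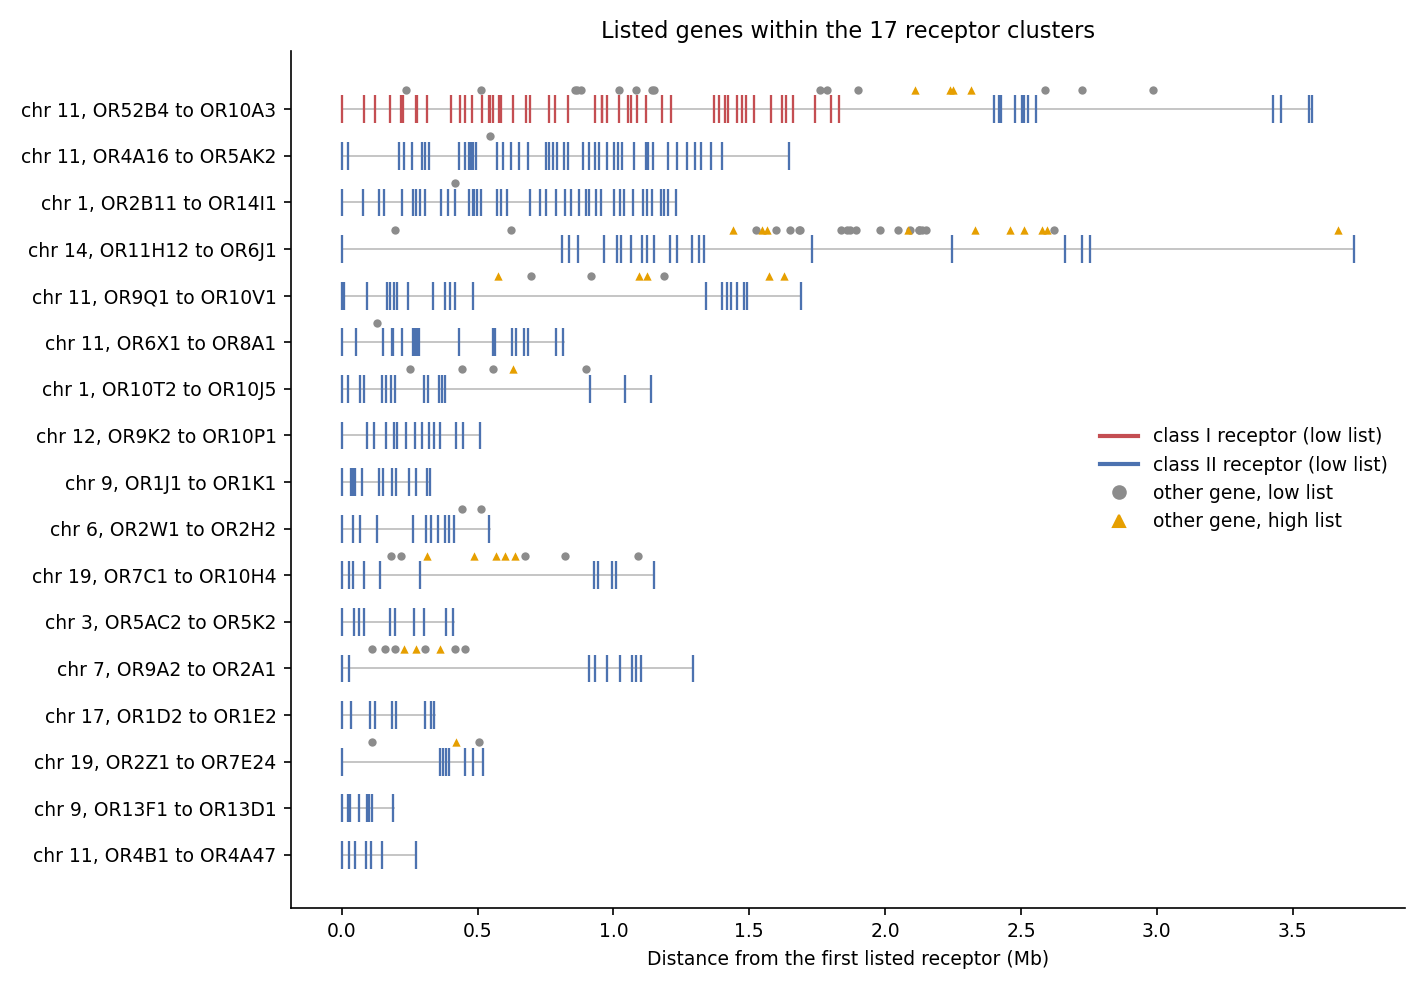
Positions of listed genes in the 17 clusters, 1 row per cluster, as distance in Mb from its first listed receptor. Vertical lines are receptors by class, circles are other low-list genes and triangles are high-list genes. Class I receptors lie in 1 unbroken stretch at the start of the top row, and most triangles lie over gaps between groups of receptors.

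The largest cluster lay on the short arm of chromosome 11 (chr11:4388493-7961141, hg19), ran from OR52B4 to OR10A3 and held 63 receptors. It held all 51 class I receptors and 12 class II receptors. The class I genes formed an unbroken stretch of 1.83 Mb from OR52B4 to OR52W1 (chr11:4388493-6221489) with 0 high-list genes and 11 other low-list genes. The first class II receptor after it was OR2AG2, and the widest interval without a listed receptor, 874 kb, lay farther along between OR2D3 and OR5P2. In all, 19 listed non-receptor genes lay in the cluster, 15 on the low list and 4 on the high list.

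The beta-globin locus lies inside the class I stretch, and all 5 of its listed genes were on the low list. HBB and HBD (adult globins), HBG1 and HBG2 (fetal globins) and HBE1 (embryonic globin) lay between OR51V1 and OR51B4 or farther along. HBB began 24.8 kb past OR51V1. The listed intervals of HBG2 and HBE1 span 5274420 to 5667019 and 5289582 to 5526847, far beyond their coding exons, and overlap receptor genes. Other low-list genes early in the cluster included TRIM68 (a ubiquitin ligase of the TRIM family), 3.66 kb past OR52I1. MMP26 (a matrix metalloproteinase) lay ahead of OR51L1, and its listed interval, 4788500 to 5013659, also overlaps receptor genes. Farther along on the low list were UBQLNL (a ubiquilin-like gene) between OR52D1 and OR52H1, and AC111177.1. Of the 26 RefSeq coding genes of the cluster on neither list, TRIM21, TRIM5, TRIM6, TRIM6-TRIM34, TRIM34, TRIM22 and TRIM3 belong to the TRIM ubiquitin ligases. Another of the 26, CNGA4, encodes a subunit of the olfactory cation channel.

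The 4 high-list genes of the class I cluster all lay in the gap between OR52W1 and OR2AG2. ARFIP2 (an arfaptin) lay 275 kb past OR52W1. ILK (integrin-linked kinase), TPP1 (a lysosomal peptidase) and MRPL17 (a mitochondrial ribosomal protein) followed, with MRPL17 ending 84.6 kb before OR2AG2. Ahead of the cluster, the nearest high-list gene was RRM1, a ribonucleotide reductase subunit, 228 kb before OR52B4. After it, EIF3F, a translation initiation factor, lay 30.7 kb past OR10A3.

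Chromosome 11 held 4 further clusters. The second cluster by size (chr11:55110627-56757342) ran from OR4A16 to OR5AK2 with 45 class II receptors, 24 of them OR5 and 10 OR8, and a single other listed gene, SPRYD5 on the low list. A cluster of 7 OR4 genes from OR4B1 to OR4A47 (chr11:48238344-48511332) lay on the other side of the centromere. Between them lay OR4C13 with OR4C12, and OR4A5 with OR4C46. Read in positional order, 63 consecutive listed rows from OR4B1 to APLNR, the gene of the apelin receptor, were all on the low list, and 56 of them were receptors. The nearest high-list genes on either side of that stretch were NUP160, a nuclear pore protein, and TNKS1BP1.

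The cluster from OR9Q1 to OR10V1 (chr11:57791353-59481337) held 21 receptors in 6 families around 8 other listed genes. Its 5 high-list genes were ZFP91 (a zinc finger protein), FAM111B, FAM111A, OSBP (an oxysterol-binding protein) and PATL1 (an mRNA decay factor). Its 3 low-list genes were GLYAT (a glycine acyltransferase), GLYATL1 (a GLYAT-like gene) and MPEG1 (macrophage perforin-2). The cluster from OR6X1 to OR8A1 (chr11:123624196-124441037) held 19 receptors and 1 other listed gene, TMEM225 on the low list.

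On chromosome 1, 42 receptors from OR2B11 to OR14I1 (chr1:247614255-248845629) formed the third cluster by size, of which 33 were OR2 and 5 were OR14. Its median spacing between receptor starts was 25.2 kb and its widest gap 78.1 kb. The single other listed gene of the cluster was TRIM58 on the low list, 15.3 kb past OR11L1. The listed interval of TRIM58 overlapped that of OR2W3. No high-list gene followed the cluster on the chromosome. The second chromosome 1 cluster, from OR10T2 to OR10J5 (chr1:158368312-159505842), held 9 OR10 and 7 OR6 genes. MNDA and PYHIN1 (interferon-inducible HIN proteins) and FCER1A (an IgE receptor chain) lay within it on the low list. IFI16, a HIN family DNA sensor, lay beside MNDA and PYHIN1 but on the high list, 222 kb past OR6N2.

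The chromosome 14 cluster from OR11H12 to OR6J1 (chr14:19377522-23103716) was the longest, at 3.73 Mb, and held the most other listed genes. Its 22 receptors, 13 of them OR4, stood beside 19 other low-list and 10 high-list genes. The first 10 of these by position were POTEG, POTEM, PARP2, KLHL33, APEX1, PNP, RNASE10, RNASE9, RNASE11 and RNASE12, of which PARP2, APEX1 and PNP were on the high list. PARP2 and APEX1 act in DNA repair and PNP in purine salvage. The other high-list genes were METTL17, HNRNPC, SUPT16H, CHD8, TOX4, METTL3 and DAD1. HNRNPC began 53.1 kb past OR5AU1, and METTL3, an RNA methyltransferase, ended 58.4 kb before OR10G3. Secreted ribonucleases of the RNase A family made up many of the low-list genes, for example RNASE2 and RNASE3 of eosinophils.

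Of the remaining clusters of at least 10 receptors, 3 held receptors and no other listed gene. They were the chromosome 12 cluster from OR9K2 to OR10P1 (chr12:55523465-56031638, 15 receptors, 11 of them OR6), the chromosome 9 cluster from OR1J1 to OR1K1 (chr9:125239220-125563395, 13 receptors, 12 of them OR1) and the chromosome 3 cluster from OR5AC2 to OR5K2 (chr3:97806017-98217496, 10 receptors, all OR5). All 10 receptors of the chromosome 3 cluster were on the plus strand. Beyond its wholly contained genes, its last receptor OR5K2 overlapped CLDND1, a claudin-domain gene on the high list, and it was the only listed receptor whose interval overlapped a high-list gene.

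The chromosome 6 cluster from OR2W1 to OR2H2 (chr6:29011990-29556745) held 12 receptors of 6 families. MAS1L (a G protein-coupled receptor) and UBD (a ubiquitin-like modifier) lay within it on the low list. TRIM27, 120 kb ahead, was the nearest high-list gene before it. The chromosome 19 cluster from OR7C1 to OR10H4 (chr19:14909958-16060768) held 11 receptors in 2 groups with a gap of 640 kb. SYDE1, AKAP8, AKAP8L and WIZ of the high list lay in that gap, with WIZ a partner of the G9a methyltransferase complex. SLC1A6, CCDC105, PGLYRP2, CYP4F8 and CYP4F2 lay in the cluster on the low list.

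The chromosome 7 cluster from OR9A2 to OR2A1 (chr7:142723245-144016150) held 10 receptors and the bitter taste receptor genes TAS2R39, TAS2R40, TAS2R60 and TAS2R41, all on the low list. PIP and CLCN1 (a muscle chloride channel) were also on the low list, while GSTK1, CASP2 and ZYX (zyxin, a focal adhesion protein) were on the high list. All 9 of these genes lay in the gap of 882 kb between OR6V1 and OR2F2. The 3 clusters still to be named held 8 or 9 receptors. The chromosome 17 cluster from OR1D2 to OR1E2 held 6 OR1 and 3 OR3 genes, and the second chromosome 9 cluster from OR13F1 to OR13D1 held 8 OR13 genes, with no other listed gene in either. The second chromosome 19 cluster from OR2Z1 to OR7E24 held 8 receptors, 6 of them OR7, with MBD3L1 and AC006271.2 on the low list and ZNF317 on the high list.

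The 12 receptors that stood alone were OR13A1, OR2AT4, OR8S1, OR4F17, OR11H1, OR2B2, OR2A4, OR2AE1, OR9A4, OR4F21, OR2K2 and OR13H1, the last on X. The runs of 2 to 4 included OR2Y1, OR2V1, OR2V2 and OR4F3 on chromosome 5, OR4F6, OR4F15 and OR4F4 on chromosome 15, and OR4F5, OR4F29 and OR4F16 on chromosome 1. The remaining runs were pairs, among them OR6B2 with OR6B3 on chromosome 2, OR1F1 with OR2C1 on chromosome 16, OR4D1 with OR4D2 on chromosome 17, OR4M2 with OR4N4 on chromosome 15 and OR13J1 with OR2S2 on chromosome 9. Of the 36 receptors outside clusters, 9 were OR4F genes.

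Over the 17 clusters, 88 listed non-receptor genes lay wholly between the outermost receptors, 59 on the low list and 29 on the high list. The low share was 67.0%, beside 47.3% among all 8600 non-receptor rows of the lists. By RefSeq order the clusters held 159 coding genes that are not receptors, of which 35.2% were on the low list, 18.2% on the high list and 46.5% on neither. Over all 19664 non-receptor coding genes the shares were 17.4%, 22.7% and 59.9%. Clusters without a high-list gene lying wholly inside numbered 10 and held 180 receptors. They include the chromosome 3 cluster, whose last receptor OR5K2 overlapped CLDND1 of the high list. RefSeq places 253 receptor pseudogenes between the ends of the clusters, 53 of them in the cluster from OR4A16 to OR5AK2 and 51 in the class I cluster.

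**Figure D2:**
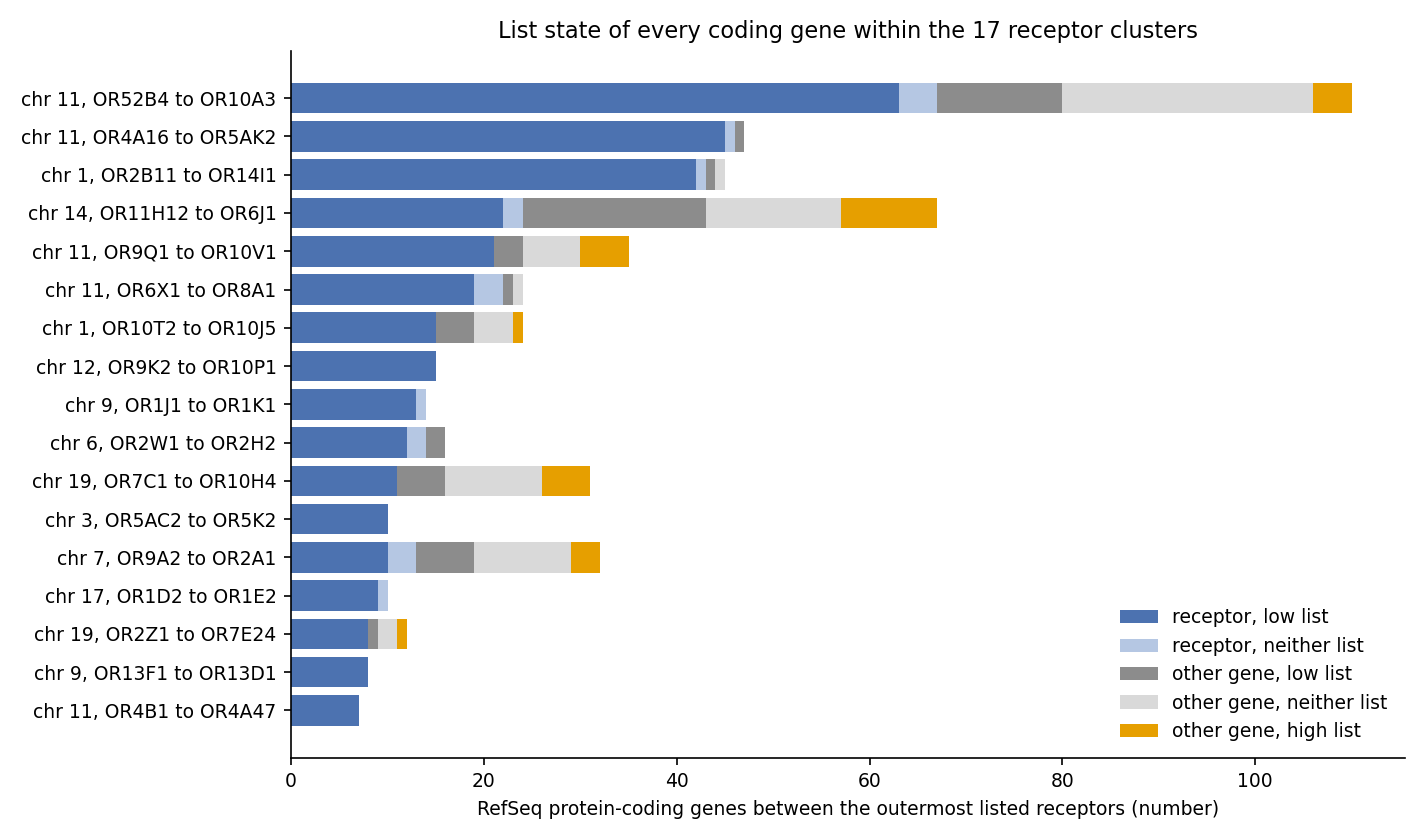
Number of RefSeq protein-coding genes between the outermost listed receptors of each cluster, stacked by kind and list. The chromosome 12, chromosome 3 and OR13 clusters and the OR4B1 to OR4A47 cluster hold low-list receptors alone, while the chromosome 14 cluster and the class I cluster each hold 43 coding genes that are not receptors.

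The count of high-list genes depended on the gap used to join receptors. With joins of at most 0.5 Mb, 6 high-list genes lay within clusters in place of 29, and with 0.25 Mb there were 3. The 6 were OSBP, PATL1, PARP2, APEX1, PNP and ZNF317. All listed non-receptor genes within clusters numbered 33 at 0.5 Mb, so 27 of the 33 were on the low list. At this setting the class I stretch separated from the class II receptors of its cluster. Most high-list genes counted at 1 Mb thus lay in the intervals between separate groups of receptors.

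Distances to the nearest receptor were also measured for the genes within clusters. Which genes these are depends on the gap used to join receptors. The 29 high-list genes of the clusters lay at a median of 157 kb from the nearest receptor, and 4 of them within 50 kb. The 59 low-list genes lay at a median of 79.8 kb, and 24 of them within 50 kb. The closest high-list gene was ZNF317, 13.4 kb from OR7G3 and 22.2 kb from OR7D2, while the nearest low-list distance was 0 kb. Seen from the receptors, where no joining enters, the nearest high-list gene lay at a median of 448 kb (quartiles 219 and 888 kb). For the 3955 other low-list rows with a high-list gene on their chromosome the median was 241 kb, and for high-list rows to another high-list row it was 30.0 kb. Within 50 kb of a high-list gene lay 15 receptors (4.09%), compared with 18.0% of the other low-list rows.

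Class I receptors all lay far from high-list genes, from 228 kb for OR52B4 to 1162 kb for OR51B4, with a median of 709 kb and 0 within 50 kb. These 51 genes share 1 stretch of the chromosome, so their distances are not separate observations. The class II median was 384 kb. Class II receptors ranged from OR5K2, which overlapped CLDND1, and OR6B2, 4.02 kb from NDUFA10 (a subunit of respiratory complex I), to the pericentromeric OR4C46, 3645 kb from NUP160, and the solitary OR4F21, 6449 kb from AGPAT5. Apart from these extremes, 3 in the chromosome 19 clusters were among the nearest, with OR7G3 at 13.4 kb, OR1I1 at 19.2 kb from SYDE1 and OR7D2 at 22.2 kb.

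**Figure D3:**
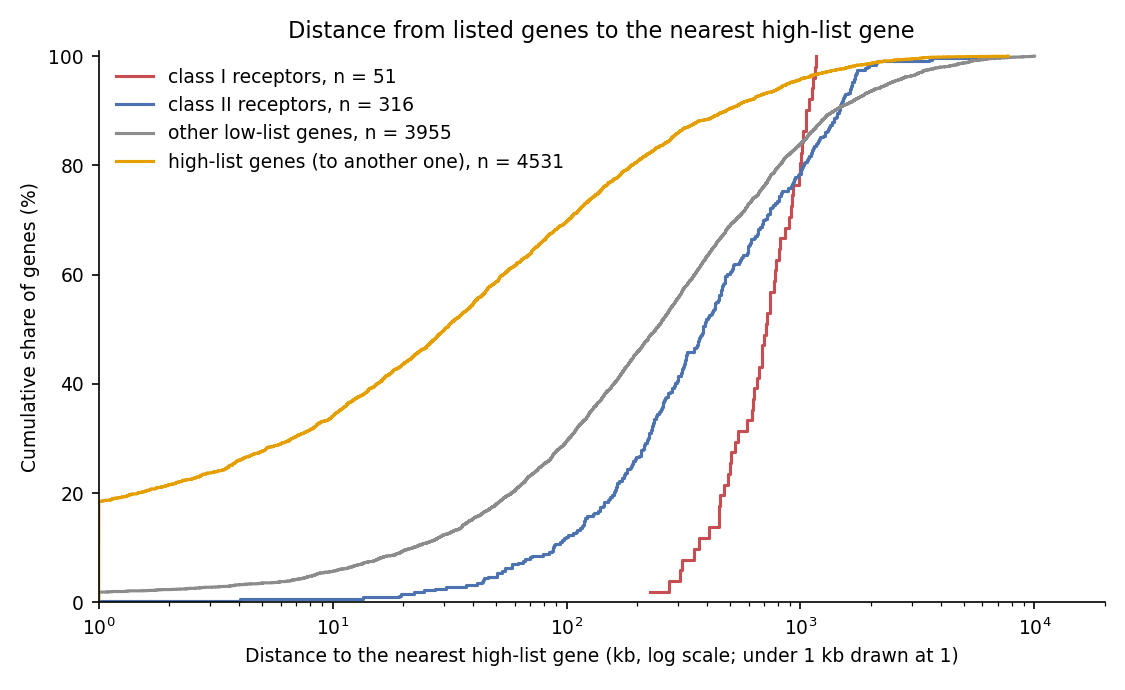
Cumulative share of genes against the distance to the nearest high-list gene in kb, on a log axis, for class I and class II receptors, other low-list genes and high-list genes. Class I receptors rise together between 228 and 1162 kb, and the receptor curves lie to the right of the other low-list genes over most of their range.

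Long runs of the low list were compared in positional order across both lists. The low-list rows formed 1333 runs with no high-list row between, with a median length of 2 rows, and 21 runs were longer than 20 rows. In 5 of these 21, most rows were receptors. The class I stretch gave a run of 63 rows with 51 receptors, ending at CCKBR, the gene of a cholecystokinin receptor. The run from NLRP3 to OR14I1 at the end of chromosome 1 had 44 rows, 42 of them receptors, and the run from CD1D to PYHIN1 had 21 rows, 13 of them receptors. The longest run of all held 114 rows and 0 receptors and took in every listed row of chromosome Y, which had no high-list row. Long runs also occurred in other tandem families without receptors, such as the 47 rows from KRT24 to KRT36 in the type I keratin cluster.

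The listed receptor intervals were short. Their median was 1035 bp, close to the median coding length of 942 bp (range 909 to 1110 bp) in GENCODE 29. In 23 cases the listed interval exceeded 2 kb, beyond the longest coding sequence, and some of these models reached over neighbouring receptor genes. OR2L13, the longest at 163732 bp, spanned OR2L8, OR2AK2, OR2L5, OR2L2 and OR2L3, and OR9Q1 spanned OR6Q1 and OR9I1 over 157.7 kb. Such long models overlapped 21 other listed receptors in all. A fragment from these overlaps could be assigned to either gene, and no source used here states the strand setting of the counting.

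Coding sequences were then compared across all 367 receptors. The closest listed relative lay in the same cluster or run for 285 receptors (77.7%), elsewhere on the same chromosome for 24 and on another chromosome for 58. Among the 331 clustered receptors the closest relative lay in the same cluster for 274 (82.8%). For class I it lay in the same cluster in 51 of 51, and class I genes have no other location. For class II it lay in the same cluster or run in 234 of 316 (74.1%). The closest relative always belonged to the same class. Identity to it had a median of 70.0% in class I (55.9 to 98.4%) and 74.0% in class II (54.6 to 100%).

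Over all pairs, median coding identity was 54.2% among class I receptors, 52.1% among class II receptors and 44.7% between the classes. Class II pairs from the same cluster or run had a median of 55.3%, and those from different ones 52%. Neighbours in a cluster had a median identity of 63.1% over 314 pairs, 65.0% for 201 pairs on the same strand and 59.6% for 113 on opposite strands. Pairs share genes, so these medians are descriptions of the repertoire. By cluster, the neighbour median ran from 55.9% in the mixed chromosome 6 cluster to 84.0% among the OR5 genes of chromosome 3. The chromosome 19 cluster of OR7 and OR10 genes had 77.2% and the class I cluster 58.9%.

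**Figure D4:**
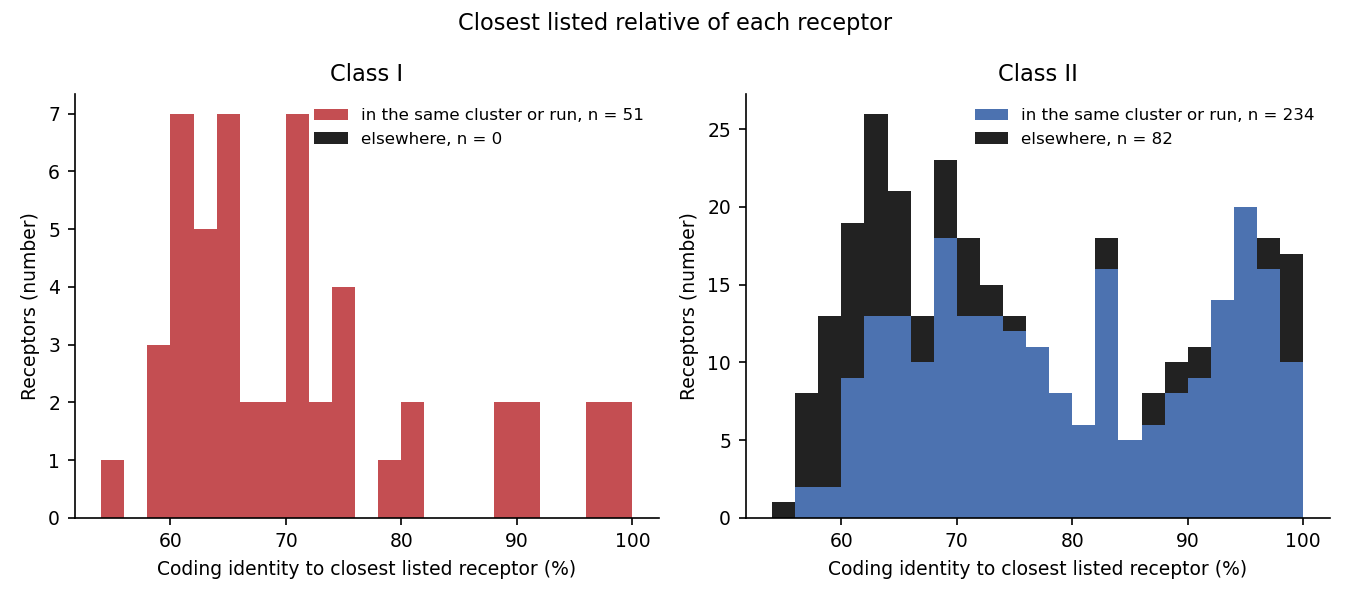
Number of receptors by coding identity (%) to their closest listed relative, for class I (left) and class II (right), with coloured bars for relatives in the same cluster or run and black for relatives elsewhere. No class I bar is black, while 82 class II receptors have their closest relative elsewhere, many of them at low identity and some near 100%.

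Distant relatives fell into different kinds of case. Some receptors had their closest relative on another chromosome at modest identity, such as OR6P1 of chromosome 1 with OR6A2 of chromosome 11 (63.7%) and OR13G1 of chromosome 1 with OR13A1 of chromosome 10 (58.3%). Others were near copies, such as OR4M1 of chromosome 14 with OR4M2 of chromosome 15 (97.2%) and OR4N2 with OR4N4 on the same chromosomes (90.3%). On chromosome 11, OR4A5 was closest to OR4A16 across the centromere (82.2%), and OR4C13 to OR4C46 between neighbouring runs (88.4%). OR2AT4 had the most distant closest relative, OR2A1, at 54.6%.

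At 98% identity or more there were 15 pairs among 19 receptors. OR4F16, OR4F29 and OR4F3 were identical over their aligned coding positions, the first 2 on chromosome 1 and the third on chromosome 5, and OR4F21 matched them at 99.7%. OR4F4, OR4F5 and OR4F17 formed a second group at 99.3 to 99.7% on chromosomes 15, 1 and 19. OR11H12 and OR11H1 matched at 99.5%. Within clusters, near-copies were OR2T5 with OR2T29 (99.8%), OR2T2 with OR2T35 (99.7%), OR2T3 with OR2T34 (99.4%), OR8B2 with OR8B3 (98.7%) and OR51A4 with OR51A2 (98.4%). Fragments from such copies could be split between them, so the list placement of these 19 genes is uncertain as to which copy it describes.

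RefSeq promoter windows were found for 294 listed receptors, 36 of class I and 258 of class II. The observed over expected CpG ratio had a median of 0.120 (quartiles 0.0652 and 0.211). It was 0.125 in class I and 0.120 in class II. Other low-list genes had a median of 0.334 (2605 windows), genes on neither list 0.765 (9127) and high-list genes 0.882 (3817). A ratio over 0.6 is 1 of the usual marks of a CpG island, besides G and C content. It was reached by 5 receptors (1.70%), 29.9% of other low-list genes and 90.5% of high-list genes. No CpG at all was present in 21.8% of receptor windows and in 0.288% of high-list windows. Receptor medians thus lay below that of the other low-list genes.

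The windows are limited by their gene models. In 121 receptor windows (41.2%) the model began at the start codon, so that the window lies before the coding sequence and not at a mapped transcription start, compared with 2.69% of other low-list windows. Among the 173 receptor windows whose model began before the start codon the median ratio was 0.114, as low as over all receptor windows. G and C made up a median of 37.7% of receptor windows, 55% of other low-list windows and 66.0% of high-list windows. By cluster, the median ratio ran from 0.0 in the OR4B1 to OR4A47 cluster (5 windows) to 0.270 in the chromosome 17 cluster (7 windows). The 5 receptors over 0.6 were OR3A2 (1.04), OR1F1 (0.929), OR2L13 (0.718), OR5D18 (0.653) and OR52N2 (0.633). They were named after their values were seen. G and C made up 32.3% of the OR5D18 window, whose model began at the start codon, and 53.0 to 71.3% of the others.

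**Figure D5:**
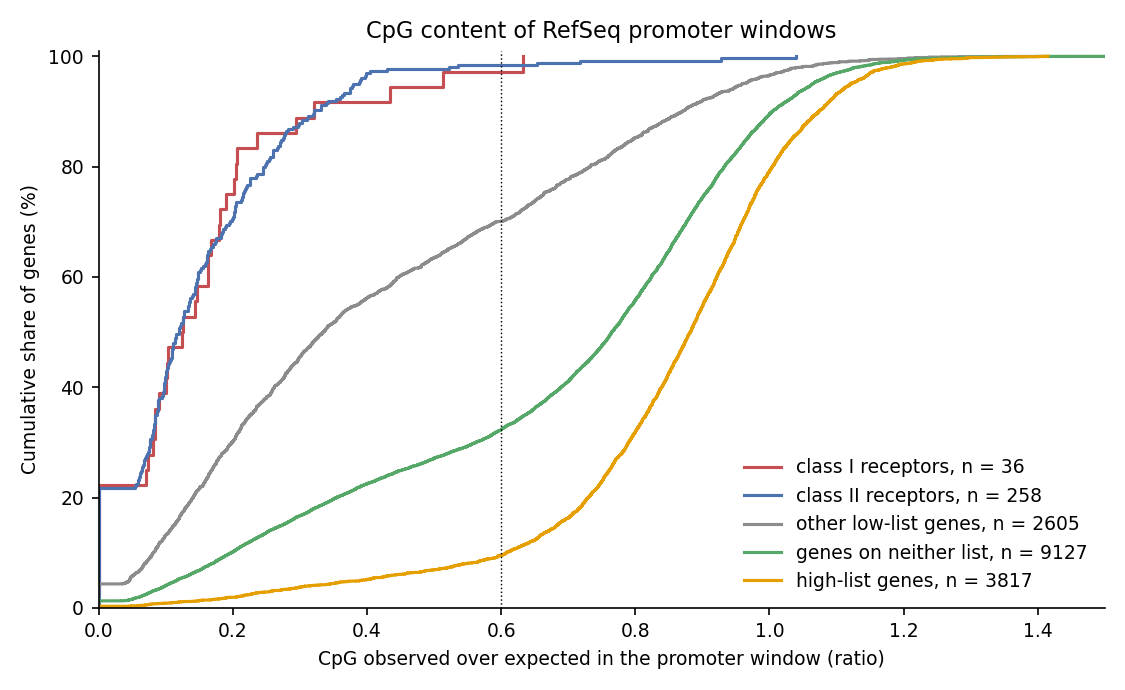
Cumulative share of genes against the observed over expected CpG ratio of the promoter window, for class I and class II receptors, other low-list genes, genes on neither list and high-list genes, with a dotted line at 0.6. The receptor curves nearly overlap and lie left of all others.

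Motifs with a known place in receptor gene promoters were searched on both strands of the windows, with the whole set of 15843 coding windows as background. The EBF motif (TCCC, any 2 bases, then GGGA) is bound by the early B-cell factors of olfactory neurons. It was present in 2 receptor windows (0.680%), OR56A1 and OR7D2, in 1.40% of all windows and in 1.65% of other low-list windows. The homeodomain motif TAATTA, a core recognised by factors such as LHX2, was present in 66 receptor windows (22.4%), 16.7% in class I and 23.3% in class II, and in 3.34% of all windows and 5.87% of other low-list windows. The TATA motif TATAAA was present in 98 receptor windows (33.3%), 41.7% in class I and 32.2% in class II, and in 9.63% of all windows and 18.8% of other low-list windows. The homeodomain and TATA motifs consist of A and T alone, and the fixed bases of the EBF motif are mostly C and G. Receptor windows were richer in A and T, whose part in these shares was not tested. A window could hold more than 1 motif, and a match shows only that the letters are present.

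Receptors known from tissues outside the nose were all on the low list. They included OR51E1 and OR51E2 of prostate and other tissues, both in the class I cluster, OR1D2 of sperm in the chromosome 17 cluster, OR2AT4 of keratinocytes, which stood alone on chromosome 11, and OR10J5 in the second chromosome 1 cluster. OR51B5, OR2A4, OR2W3, OR1A1 and OR1A2 completed this group of 10. Of 7 receptors linked to a known human odour phenotype, 6 were on the low list (OR7D4, OR5A1, OR2J3, OR6A2, OR2M7 and OR10G4). OR11H7 was on neither, and RefSeq types it as a pseudogene. OR7D4, the androstenone receptor, lay 50.4 kb from ZNF317. These counts stand beside the 93.1% of all coding receptors on the low list.

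The genes that act downstream of the receptors were found on both lists. Of 19 gene symbols of olfactory transduction, 4 were on the low list, 3 on the high list and 12 on neither. These counts are near the shares over all coding genes (18.8% low and 22.3% high). Of the symbols on neither, GRK3 and ADRBK2 are the newer and older names of the same gene. CNGA2 (a channel subunit), OMP (olfactory marker protein), PDE1C (a phosphodiesterase) and STOML3 were on the low list, and GNB1, ADCY3 and SLC12A2 (a chloride transporter used in many epithelia) on the high list. GNAL was on neither. Of 7 trafficking genes, RTP1 and RTP2, which help receptors reach the cell surface, were on the low list and the other 5 on neither.

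Of 26 regulators linked to receptor choice or to heterochromatin, 12 were on the high list, 2 on the low list and 12 on neither. The low-list genes were EBF3 and EMX2, both transcription factors of olfactory neurons, while LHX2, LDB1, EBF1, EBF2 and EBF4 were on neither list. The high-list genes were mostly general chromatin factors, with the HP1 genes CBX1, CBX3 and CBX5 and the H3 methyltransferases EHMT1 and EHMT2. KDM1A, LBR, SMCHD1 and TRIM28 were also on the high list, besides RLIM, ATF5 and NFIX. SUV39H1, SUV39H2 and SETDB1 were on neither list. Over all coding genes 18.8% were on the low list and 22.3% on the high list, as given above.

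Defining markers of the cell type are given beside the 18.8% of coding genes on the low list and 22.3% on the high list. Of 9 markers of cervical and simple epithelium, 5 (KRT7, KRT8, KRT17, KRT18 and CDKN2A) were on the high list, 0 on the low list and 4 on neither. KRT5, a keratin of basal squamous epithelium counted here among olfactory basal cell markers, was on the low list. Of 11 olfactory neuron markers, 5 were on the low list (OMP, CNGA2, STOML3, GAP43 and NCAM2) and 1, ADCY3, on the high list. Of 8 markers of olfactory sustentacular and basal cells, 7 were on the low list, as were all 4 sperm markers and all 5 globin genes. Other chemosensory receptor families had 0 genes on the high list, and the low list held 5 of 6 coding TAAR genes, 11 of 25 TAS2R genes, 1 of 3 TAS1R genes and 2 of 3 VN1R genes. The MS4A family, some members of which act as chemoreceptors in mouse, had 15 of 16 coding genes on the low list.

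No level could be given for any receptor. The deposited count table names its 26006 loci by assembly identifiers without symbols, so no receptor could be matched to its fragments and no fold change between fractions could be computed. The libraries held 18226280 to 33466924 assigned fragments. At 7820 loci (30.1%) no fragment was assigned in any of the 6 libraries, and 34.9 to 37.9% of loci were at 0 in a single library. Whether the listed receptors are among these loci cannot be read from the files used here. The lists therefore place the receptors among lowly expressed genes and do not show that any of them was silent.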

How the data were processed

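RNA from 3 migrated and 3 non-migrated SiHa libraries had been sequenced. Build hg19 and the tools Cuffdiff, Cufflinks 2.2.1, TopHat2 and CASAVA 1.8.2 are named in the submitters' processing notes, without order or settings, and no source used here gives the annotation. The deposited lists give symbols and 1-based positions per the file headers, with no expression value and no stated selection rule. The deposited estimated counts are, per the file headers, Cuffdiff's unscaled fragments at each locus, and were used only for depth and for loci at 0. The replicate index of that table was read in the order of the labels, which no result here turns on.

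Receptors were the rows whose symbol matched the receptor pattern. Clusters were runs of at least 5 listed receptors with at most 1 Mb between the end of one and the start of the next, and other genes were counted inside when they lay wholly between the outermost receptors. Names were matched to RefSeq (GRCh38.p14) by current symbol or by an unambiguous synonym, for 8760 of 8967 rows. RefSeq positions were used only for gene order, because the builds differ. Coding sequences from GENCODE 29 were aligned with MAFFT 7.526, and identity was counted over positions present in both genes. CpG ratio was the CpG count times the window length over the product of the C and G counts. Tables were computed with pandas 2.3.3 and numpy 2.4.6, and the joining, identity and motif steps were checked on simulated data. No statistical test was made, because the lists carry no samples.

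Named genes were the first and last receptor and every listed non-receptor gene of each cluster of 10 or more receptors (the first 10 by position where there were more), the ends of smaller clusters, all solitary receptors and fixed gene lists. Some genes that this rule would name are not reported here. High-list genes of the 2 most crowded clusters, extremes of distance and identity, and the ZNF317 window were added after their values were seen, as were the distances to high-list genes and the motif shares. The members and lists were chosen with earlier results of these data known. Protein identity was planned and was replaced by coding identity. Alternatives were other gaps, cluster sizes, denominators and count limits.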

Additional observations from a re-analysis of the deposited data

How the results depend on the processing

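The number of clusters was 16 to 20 with gaps of 0.25, 0.5 and 2 Mb, 13 with at least 10 receptors each and 27 with at least 2. Listed non-receptor genes within clusters numbered 33 with a gap of 0.5 Mb, and high-list genes among them 6 at 0.5 Mb and 3 at 0.25 Mb, because shorter joins no longer span the intervals between groups of receptors. The share of RefSeq receptors on the low list was 41.9% with pseudogenes in the denominator and 95.3% over coding receptors that GENCODE 29 also names, the latter chosen after seeing the data. The counts of 367 receptors and 51 class I receptors were the same under the alternatives run. Those alternatives removed or added no gene, so they were no test of the counts. Leaving out 1 library at a time gave 7938 to 8148 loci at 0, and counting loci with at most 5 fragments gave 11122. A restriction to rows typed as protein coding was not run, because that column is empty. No paired analysis was possible because the lists have no sample columns and no test was made. The lists give no depth for a receptor, and the limits of the long models, the near-identical copies and the promoter windows stand beside their results.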
